A study of Mus musculus with 12 samples.

Results

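The response to stabilized β-catenin was examined in 6 of the 12 samples of the series, all of them mouse pre-B cells that carry BCR-ABL1, the fusion kinase of Philadelphia chromosome-positive leukemia, and serve to model B-ALL (acute leukemia of B cell precursors). The 6 samples were chosen by their labels, without regard to any measured value. The ERT2 WT and Cre-ERT2 WT groups had 3 replicates each, and all 12151 genes of the expression table were compared between them. Both groups carried the genotype Ctnnb1Ex3fl/+, in which exon 3 of 1 Ctnnb1 copy is flanked by loxP sites, and sgNTC, a nontargeting Cas9 guide that leaves the Ikaros genes Ikzf1 and Ikzf3 unedited. ERT2 WT cells expressed the tamoxifen-binding domain of the estrogen receptor alone, and Cre-ERT2 WT cells expressed Cre recombinase fused to it, so that 4-hydroxytamoxifen (4-OHT) activates Cre and exon 3 is excised. Bone marrow came from mice aged 6 to 12 weeks, the transduced cells were sorted for GFP, and the protocol, worded for chromatin experiments, names day 1 after 4-OHT. The remaining 6 samples carry the same vectors in cells labelled as edited at Ikzf1 and Ikzf3 (ERT2 KO and Cre-ERT2 KO) and are used only to show where the response differed.

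The model has limits that bear on every value. Lines were grown from single cells, and the sources used here neither assign a clone to a sample nor say whether replicates were separate cultures, so p-values measure only the spread between these samples. No group expressed active Cre without the floxed exon, so effects of Cre itself and of β-catenin cannot be told apart.

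β-catenin links cadherins to the cytoskeleton and, when it accumulates, enters the nucleus as a coactivator of TCF and LEF factors. It has no DNA-binding domain of its own. In resting cells a destruction complex of APC, AXIN, CK1α and GSK3β phosphorylates its N terminus, and the marked protein is ubiquitinated and degraded by the proteasome. The stabilized protein is known as an oncogenic driver in epithelial tumors, where MYC is among its classical targets.

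The sequence removed by Cre is shown because it defines the perturbation. Exon 3 of Ctnnb1 lies at chr9:120950522-120950749 on the plus strand of GRCm38 (mm10), is coding throughout and is 228 bases long. It is printed as in the GENCODE vM21 transcript, 5′ to 3′, with capitals at the codons of S33, S37, T41 and S45, residues whose phosphorylation starts degradation. The exon length is a multiple of 3, so that its loss removes 76 codons and keeps the reading frame.
Ctnnb1 exon 3: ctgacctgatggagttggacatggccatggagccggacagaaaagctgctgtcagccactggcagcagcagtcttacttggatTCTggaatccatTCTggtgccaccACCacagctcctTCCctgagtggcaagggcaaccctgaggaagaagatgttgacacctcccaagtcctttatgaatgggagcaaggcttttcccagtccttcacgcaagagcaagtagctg

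Expression values were the authors' normalized log2 values, and a change is the Cre-ERT2 WT mean minus the ERT2 WT mean on that scale. Genes with an adjusted p below 0.05 in a limma fit over all genes are referred to as called. Median values per WT sample lay between 9.059 and 9.07, and the depth of each sample is unknown because the table holds no counts. Over 973 genes with mean values of 12 to 14, a single sample had a robust SD of 0.025 to 0.0366, so that small changes could pass the test. In a principal component analysis of the 6 samples, the first component held 59.6% of the variance and parted the groups. ERT2 WT replicate 2 stood apart at Yam1, beside a ribosomal RNA locus (16.80, against 14.64 to 14.85 in the other samples). Cre-ERT2 WT replicate 2 stood apart at the mitochondrial pseudogenes Gm28437 (8.20, against 11.07 to 12.24) and Gm10925 (14.19, against 15.25 to 15.71). None of these genes was called.

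All 15 genes of a pre-B marker list had a row in the table, which fits the label of the cells. Cd79a, a chain of the pre-B cell receptor, had the highest ERT2 WT mean of the list (15.10). Pax5, the factor that maintains B cell identity, averaged 13.77 in ERT2 WT samples. Of 26 myeloid markers 5 had a row, of 18 stromal and endothelial markers 3, and of 15 erythroid and megakaryocyte markers none. Of the 5 myeloid markers Fcgr3, an Fc receptor gene, was called, at -0.10 (limma adjusted p 0.00435). The summed level of the 5, as the log2 of summed unlogged values, was 8.06 to 8.07 in ERT2 WT and 8.02 to 8.05 in Cre-ERT2 WT samples. Of the 3 stromal and endothelial markers Pecam1 rose by 0.29, and the summed level was 14.53 to 14.59 and 14.59 to 14.63. The part of such cells in other results was not tested.

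Between the groups 1443 genes were called (11.9%), of which 720 (5.93%) were higher and 723 (5.95%) lower in Cre-ERT2 WT samples. The sides were not alike in size. Of the called genes 37 rose and 5 fell by at least 0.5, and 8 rose and 1 fell by at least 1. The median change was 0.16 among genes called higher and -0.138 among those called lower. At an unadjusted p under 0.05 there were 3030 genes, and the groups did not overlap in 3776 genes (31.1%). Calls were more frequent at higher expression, from 4.90% of the 3038 genes with the lowest mean values to 19.7% of the 3038 with the highest. Protein-coding genes were called in 12.9% of 10874 and other gene types in 3.48% of 1237. The median change per autosome stayed between -0.0039 and 0.0073 over the 19 autosomes.

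**Figure D1:**
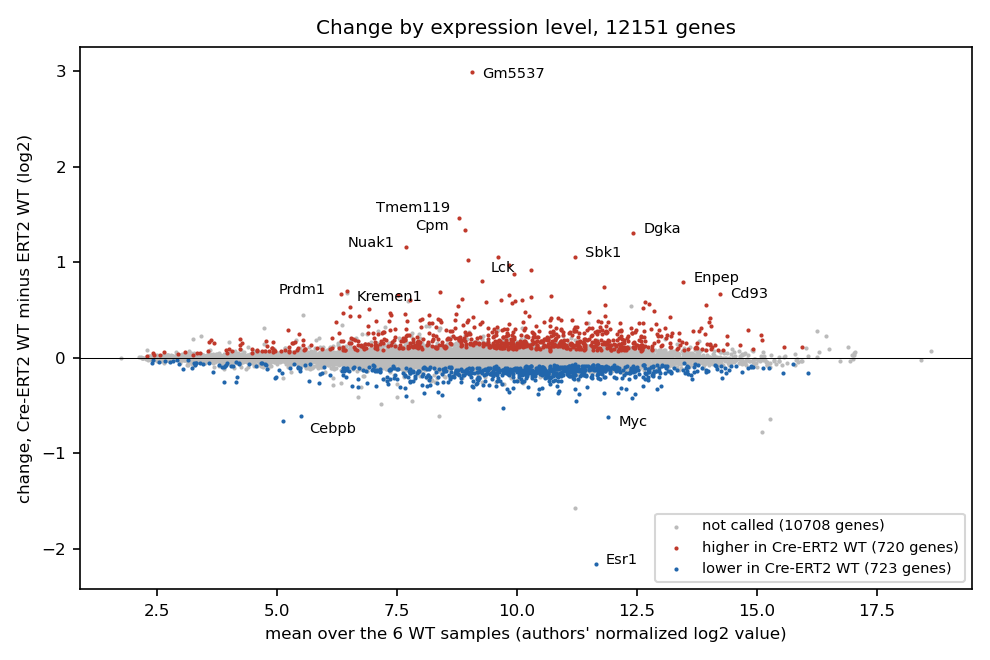
Change between Cre-ERT2 WT and ERT2 WT samples (vertical axis, log2) against the mean over the 6 WT samples (horizontal axis, authors' normalized log2 value), 1 point per gene, with called genes in red (720 higher) and blue (723 lower). Most called genes lie within 0.5 of 0, and the labelled rises reach further than the falls apart from Esr1.

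Ctnnb1 itself (ENSMUSG00000006932, chromosome 9, 120929216 to 120960507, plus strand) read 12.44, 12.43 and 12.46 in the ERT2 WT samples and 12.51, 12.50 and 12.53 in the Cre-ERT2 WT samples. The groups did not overlap, but the change of 0.06 (95% interval 0.01 to 0.12) was not called at adjusted p 0.128. Whether exon 3 was absent from the transcripts cannot be read from a gene-level value. Of 21 genes of the destruction complex and its ubiquitin ligases, 2 rose and 1 fell, a called share of 14.3% near the 11.9% over all genes. Csnk1e, the kinase CK1ε, fell by 0.21 (SE 0.041, limma adjusted p 0.0045), Csnk1d, the kinase CK1δ, rose by 0.14, and Siah1a, a ubiquitin ligase, rose by 0.11. The kinase genes Gsk3b (0.08, adjusted p 0.0712) and Csnk1a1 (0.07, adjusted p 0.138) and the scaffold gene Axin1 (-0.13, adjusted p 0.101) were not called.

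Feedback inhibitors of the Wnt pathway rose in Cre-ERT2 WT samples. Of 34 feedback and target genes in the list 12 had a row, of which 5 rose and 1 fell, a called share of 50% beside 11.9% over all genes. The median change was 0.058 beside 2.2e-05 over all genes. The 5 feedback inhibitors of the table had a median change of 0.29, and 4 of them rose, whereas of 7 other target genes 1 rose and 1 fell. The list overlaps the feedback genes that the study itself reported in such cells, so its direction is not independent evidence. Of the 5 rises, 3 were at genes with a mean over the 12 samples above 8 and 1 at a gene above the median of the WT samples.

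Kremen1, a receptor for the Wnt inhibitor DKK1, read 8.03, 8.12 and 8.05 in the ERT2 WT samples and 8.80, 8.68 and 8.78 in the Cre-ERT2 WT samples. It rose by 0.69 (SE 0.043, limma adjusted p 5.39e-07), a fold of 1.61. Nkd1, which binds Dishevelled and dampens the pathway, read 6.26, 6.28 and 6.26 in the ERT2 WT samples and 6.78, 6.79 and 6.81 in the Cre-ERT2 WT samples and rose by 0.53 (SE 0.027). In both genes every Cre-ERT2 WT value lay well above the ERT2 WT values. Axin2, the inducible scaffold of the destruction complex, read 5.08, 5.09 and 5.09 in the ERT2 WT samples and 5.38, 5.35 and 5.39 in the Cre-ERT2 WT samples and rose by 0.29 (SE 0.016). Nkd2, the paralog of Nkd1, rose by 0.28 (SE 0.041). Axin2 and Nkd1 were among the 3038 genes with the lowest mean values. Of the other target genes, Tnfrsf19, a receptor of the TNF family, rose by 0.23 and Bambi, a decoy receptor of the TGFβ family, fell by 0.11. Ccnd1 (-0.0054, 95% interval -0.05 to 0.04), the cyclin D1 gene often cited as a Wnt target, and the R-spondin receptor gene Lgr5 (0.02, 95% interval -0.04 to 0.08) were not called.

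Of 22 TCF factors and nuclear partners of β-catenin, 7 rose and 2 fell, a called share of 40.9% beside 11.9% over all genes. Lef1, the LEF factor of early B cells, read 12.15, 12.17 and 12.24 in the ERT2 WT samples and 12.41, 12.38 and 12.38 in the Cre-ERT2 WT samples and rose by 0.20 (SE 0.029, limma adjusted p 0.000526). Tcf7, which encodes TCF1, read 7.05, 7.05 and 7.10 in the ERT2 WT samples and 7.31, 7.35 and 7.33 in the Cre-ERT2 WT samples and rose by 0.26 (SE 0.027). Neither gene's groups overlapped, and Lef1 had a far higher normalized value, a comparison that is not corrected for transcript length. The other 2 TCF genes, Tcf7l1 (0.04) and Tcf7l2 (0.02), were not called. Among corepressors of the Groucho family Tle3 rose by 0.32 (SE 0.033) and Tle4 by 0.18, while Tle1 fell by 0.23. Ctnnbip1, which encodes a peptide that blocks binding of β-catenin to TCF factors, rose by 0.17. The coactivator genes Smarca4, the BRG1 ATPase, and Crebbp, the acetyltransferase CBP, rose by 0.24 and 0.28, and Cdk8, the kinase of the Mediator complex, fell by 0.14.

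**Figure D2:**
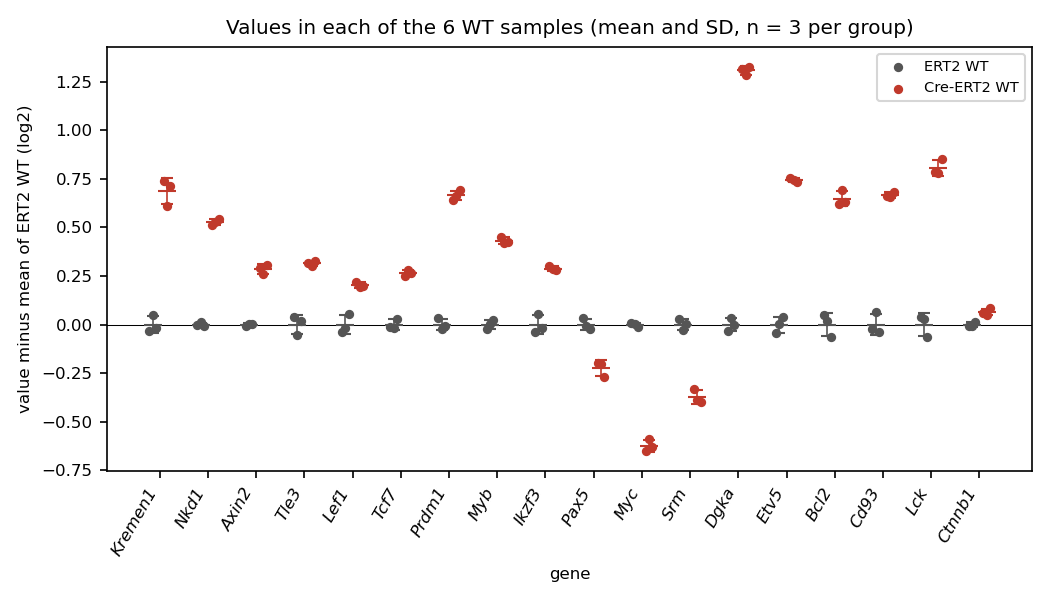
Values of 18 genes in each of the 6 WT samples, as the difference from the ERT2 WT mean (vertical axis, log2), with ERT2 WT in grey and Cre-ERT2 WT in red; bars give mean and SD (n = 3). The groups are separate in all 18 genes, including Ctnnb1, whose change of 0.06 was not called.

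Of the Ikaros family and the NuRD corepressor subunits, 3 of 18 genes rose and 2 fell, a called share of 27.8% beside 11.9% over all genes. Ikzf3, which encodes Aiolos, read 11.59, 11.68 and 11.61 in the ERT2 WT samples and 11.93, 11.91 and 11.91 in the Cre-ERT2 WT samples and rose by 0.29 (SE 0.043, limma adjusted p 0.000879). Ikzf1, which encodes Ikaros, read 13.75, 13.74 and 13.73 in the ERT2 WT samples and 13.67, 13.70 and 13.66 in the Cre-ERT2 WT samples. Its fall of 0.06 was close to the threshold (limma adjusted p 0.0494). Both Ikaros genes were thus expressed in both groups. The NuRD histone deacetylase gene Hdac1 rose by 0.09 and its chaperone subunit gene Rbbp4 by 0.10, and Cdk2ap1 fell by 0.09. The NuRD ATPase gene Chd4 (-0.0089) and the subunit gene Mta2 (0.05) were not called.

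Myc, the growth regulator, had the largest fall after Esr1 among called genes above the median expression level. At ENSMUSG00000022346, chromosome 15, 61985391 to 61990374, plus strand, it read 12.22, 12.22 and 12.20 in the ERT2 WT samples and 11.56, 11.62 and 11.58 in the Cre-ERT2 WT samples. The fall of 0.62 (SE 0.019, limma adjusted p 6.69e-10) left Cre-ERT2 WT samples at 0.649 of the ERT2 WT level, and the groups lay far apart relative to their spread. The exact 2-sided permutation test gave 0.1, the smallest p that 3 against 3 samples allow, as it did for every gene whose groups did not overlap. Of the 11 measured genes of the Myc network 1 rose and 2 fell, a called share of 27.3% beside 11.9% over all genes. Mycn, the neuronal paralog, rose by 0.22 (SE 0.048), and Mxi1, a Myc antagonist, fell by 0.15. The obligate partner Max read 11.25, 11.26 and 11.24 in the ERT2 WT samples and 11.26, 11.28 and 11.20 in the Cre-ERT2 WT samples and was not called, with a change of -0.0022 (95% interval -0.06 to 0.06).

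Genes of the nucleolus, where ribosomes are built, fell together. Of 69 nucleolar and ribosome biogenesis genes 46 fell and none rose, against 5.95% lower and 5.93% higher over all genes, and 67 of the 69 had a negative change. Their median change was small, at -0.13 beside 2.2e-05 over all genes. Rrp1b, a nucleolar factor of ribosomal RNA processing, fell by 0.28 (SE 0.045, limma adjusted p 0.00139). Polr1b, a core subunit of RNA polymerase I, read 11.03, 11.07 and 11.01 in the ERT2 WT samples and 10.79, 10.82 and 10.78 in the Cre-ERT2 WT samples and fell by 0.24 (SE 0.032). Noc2l read 12.86, 12.85 and 12.84 in the ERT2 WT samples and 12.61, 12.63 and 12.63 in the Cre-ERT2 WT samples and fell by 0.23 (SE 0.019), and Nop16 fell by 0.22. The abundant nucleolar proteins nucleophosmin (Npm1, -0.16), nucleolin (Ncl, -0.16) and fibrillarin (Fbl, -0.14) fell less but were all called. In each of Polr1b, Noc2l and Nop16 the groups did not overlap.

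Enzymes of nucleotide and polyamine synthesis, many of them Myc targets, fell as well. Of 32 genes of Myc-regulated metabolism 15 fell and 1 rose, a called share of 50% beside 11.9% over all genes, with a median change of -0.081. Srm, spermidine synthase, read 11.51, 11.45 and 11.48 in the ERT2 WT samples and 11.14, 11.09 and 11.08 in the Cre-ERT2 WT samples and fell by 0.37 (SE 0.032, limma adjusted p 7.59e-06). Odc1, the rate-limiting enzyme of polyamine synthesis, fell by 0.13. Cad, the enzyme that starts pyrimidine synthesis, fell by 0.16, and the serine hydroxymethyltransferase genes Shmt1 and Shmt2 by 0.18 and 0.15. The single rise was Slc16a1, a lactate transporter, by 0.28 (SE 0.025).

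The translation machinery showed the same direction with fewer calls. Of 41 initiation and elongation factors 16 fell and none rose (median -0.07), with Eif1a lowest at -0.18. The number of translation factors called fell to between 9 and 10 when ERT2 WT replicate 1 or 2 or Cre-ERT2 WT replicate 1 or 3 was left out. Of 22 aminoacyl-tRNA synthetases 7 fell and none rose (median -0.072), led by Yars (-0.13). Of 77 cytosolic ribosomal protein genes 3 fell and none rose, although 72 had a negative change (median -0.04), and the count was 1 to 6 with 1 sample left out. Of 74 mitochondrial ribosomal protein genes 8 fell and none rose (median -0.053), a count of 4 without ERT2 WT replicate 1 and of 5 without any 1 of the other samples except ERT2 WT replicate 2. The called shares were 3.9% of cytosolic and 10.8% of mitochondrial ribosomal protein genes, beside 11.9% over all genes and 66.7% of nucleolar genes.

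**Figure D3:**
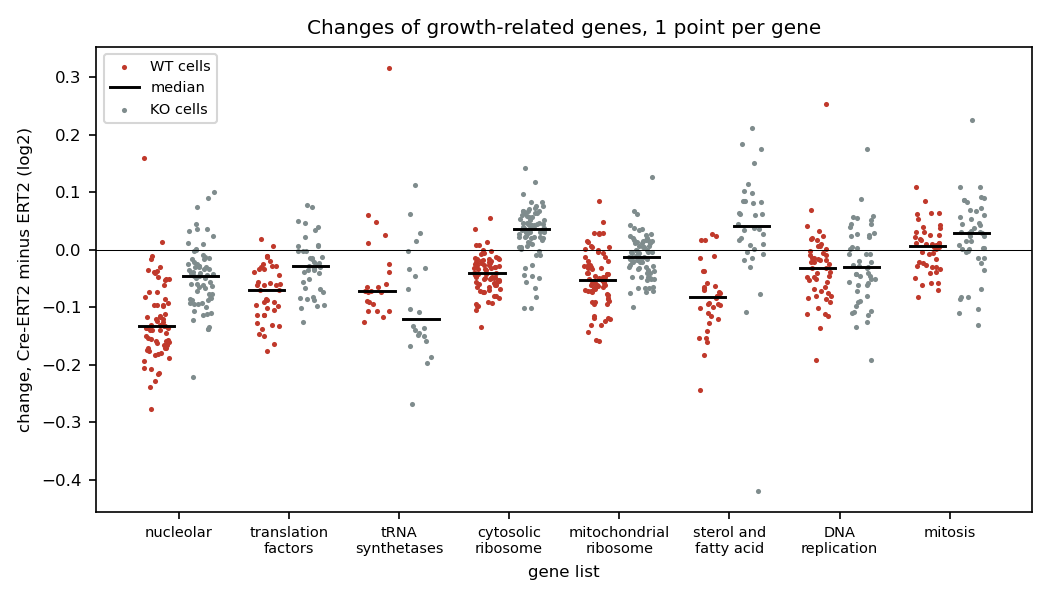
Change of each gene (vertical axis, Cre-ERT2 minus ERT2, log2) in 8 lists of growth-related genes, in WT cells (red) and KO cells (grey), with the median of each list as a black line. In WT cells the nucleolar genes lie lowest, with a median of -0.13, while the mitotic genes center near 0.

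A promoter of a falling nucleolar gene is shown because the E-box CACGTG, the preferred binding motif of Myc, stands close to its start. Nop2, a ribosomal RNA methyltransferase chosen after its values were seen, read 11.42, 11.44 and 11.43 in the ERT2 WT samples and 11.26, 11.26 and 11.21 in the Cre-ERT2 WT samples and fell by 0.18 (SE 0.026). Its promoter at chr6:125131633-125131932 (plus strand, GRCm38.p6, RefSeq, 300 bases around the start) is printed with the motif in capitals, at position -60 from the start.
Nop2 promoter: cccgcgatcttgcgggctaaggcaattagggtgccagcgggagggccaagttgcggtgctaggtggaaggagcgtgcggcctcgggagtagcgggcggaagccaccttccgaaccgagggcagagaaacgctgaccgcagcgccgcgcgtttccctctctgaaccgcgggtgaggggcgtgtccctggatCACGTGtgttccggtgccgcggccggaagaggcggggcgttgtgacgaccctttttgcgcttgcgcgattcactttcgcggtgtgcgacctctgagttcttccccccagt

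The motif CACGTG, which reads the same on both strands, was present in 13 of 61 nucleolar promoters (21.3%) and in 9 of the 40 promoters of nucleolar genes that fell (22.5%), beside 10.6% of 8560 promoters. Across all called genes it was close to this background, at 9.9% of 525 promoters of genes that rose and 12.4% of 540 of genes that fell. The TCF and LEF core CTTTGA, sought on both strands, stood in 13.5% of promoters of genes that rose and 11.1% of those that fell, beside 12% of all promoters. It stood in 8 of the 61 nucleolar promoters (13.1%), near the share of all promoters, and in 8 of the 40 of nucleolar genes that fell (20%). Among these 40 both motifs were more frequent than in all promoters, and over the 61 only CACGTG clearly was. Whether either share is particular to these promoters was not tested. GGGAA, the Ikaros core, stood in 66.1% and 61.7%, beside 64.5%, and the longer TGGGAA, which contains it, in 21.3% and 24.1%, beside 22.7%. These are matches of letters in a 300-base window of 1 promoter per gene and not binding sites. Zap70, a kinase gene that rose by 0.65, is shown as an example chosen after its values were seen. Its promoter at chr1:36761548-36761847 (plus strand, GRCm38.p6, RefSeq) is shown with CTTTGA in capitals at position -21.
Zap70 promoter: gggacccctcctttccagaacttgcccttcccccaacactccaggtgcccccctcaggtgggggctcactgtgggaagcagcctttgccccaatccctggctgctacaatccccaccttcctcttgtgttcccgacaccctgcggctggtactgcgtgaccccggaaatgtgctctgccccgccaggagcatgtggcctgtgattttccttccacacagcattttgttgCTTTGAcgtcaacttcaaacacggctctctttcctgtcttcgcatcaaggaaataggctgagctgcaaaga

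The largest rises above the median gene included lipid and kinase signaling genes. Dgka (ENSMUSG00000025357, chromosome 10, 128720134 to 128744855, minus strand), the kinase that converts diacylglycerol to phosphatidic acid, read 11.74, 11.81 and 11.77 in the ERT2 WT samples and 13.09, 13.06 and 13.10 in the Cre-ERT2 WT samples. It rose by 1.31 (SE 0.025, limma adjusted p 1.03e-11), a fold of 2.48. Sbk1, a serine/threonine kinase, read 10.67, 10.67 and 10.71 in the ERT2 WT samples and 11.74, 11.75 and 11.74 in the Cre-ERT2 WT samples and rose by 1.06 (SE 0.022). In neither gene did the groups overlap. Kbtbd11, a kelch-repeat protein, rose by 1.05, Megf10, an engulfment receptor, by 0.97, and Igfbp4, a secreted inhibitor of insulin-like growth factors, by 0.92. Rdh10, a retinol dehydrogenase, rose by 0.65, Acpp, an acid phosphatase, by 0.60, Apobec1, an RNA-editing deaminase, by 0.60, the ubiquitin ligase gene Rnf157 by 0.58, and Erc1 by 0.58. Among genes at or below the median expression, Tmem119 read 8.14, 7.98 and 8.09 in the ERT2 WT samples and 9.56, 9.53 and 9.51 in the Cre-ERT2 WT samples and rose by 1.46 (SE 0.046). Cpm, carboxypeptidase M, rose by 1.34, Nuak1, an AMPK-related kinase, by 1.16, Pdzd2 by 1.03 and Ccnk, cyclin K, by 0.69. The 3 ERT2 WT values of Ccnk spanned only 0.001, and its 3 Cre-ERT2 WT values 0.34.

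The largest rise of all was at Gm5537 (ENSMUSG00000069008, chromosome 3, 58102996 to 58104247, minus strand), an annotated processed pseudogene, which read 7.57, 7.57 and 7.56 in the ERT2 WT samples and 10.60, 10.60 and 10.47 in the Cre-ERT2 WT samples. The change of 2.99 (SE 0.07) is uncertain as a property of this locus, because its whole transcript of 1252 bases is contained without a mismatch in 1 of the 3 annotated Pgk1 transcripts. Reads from the gene of phosphoglycerate kinase and from its copy cannot be told apart. Pgk1 itself read 14.87, 14.86 and 14.87 in the ERT2 WT samples and 14.81, 14.74 and 14.73 in the Cre-ERT2 WT samples and fell by 0.11 (limma adjusted p 0.031).

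Esr1 had the largest fall, reading 12.69, 12.66 and 12.82 in the ERT2 WT samples and 10.60, 10.53 and 10.56 in the Cre-ERT2 WT samples, a change of -2.16 (SE 0.038). ERT2 derives from the human estrogen receptor, so the values cannot part the mouse gene from the vectors, which differ between the groups by design. Other large falls were those of Nov, a secreted matricellular protein (-0.53), Dusp5, a nuclear phosphatase of ERK (-0.45), Bhlhe41, a basic helix-loop-helix repressor (-0.43), and Sdc4, the heparan sulfate carrier syndecan 4 (-0.42). Car2, carbonic anhydrase 2 (-0.37), Zeb2, a zinc-finger repressor (-0.37), and Csf2rb, the shared chain of the IL-3 and GM-CSF receptors (-0.37), followed. Csf2rb2, its close paralog, fell by 0.39, and reads common to both could be split between them. Falls of 0.32 to 0.37 were also found at 2900026A02Rik, Kank1, Heg1, Ndc1, Syndig1l, Sema6d, Slc39a14 and Jund. Gm26917 (-0.36), which lies next to Yam1, and Gm28438 (-0.33), a nuclear copy of mitochondrial sequence, passed the test too. A spread of at most 0.002 in 1 WT group was found for 181 genes, of which 7 were called. The median of their mean values was 3.83, and since the transformation behind the table is not given in the sources used here, changes of weakly expressed genes are of uncertain size. Of genes below the median level, Cebpb, the myeloid transcription factor C/EBPβ, fell by 0.61 (SE 0.037), Sema7a by 0.40 and Gsto1 by 0.36.

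Transcription factors of the B lineage were called in both directions. Of 37 in the list 15 rose and 5 fell, beside 5.93% and 5.95% over all genes, with a median change of 0.048. Prdm1, which encodes the plasma cell regulator Blimp1, read 6.04, 5.99 and 6.00 in the ERT2 WT samples and 6.65, 6.67 and 6.70 in the Cre-ERT2 WT samples. It rose by 0.66 (SE 0.023, limma adjusted p 2.2e-09) from a low level, and the groups were far apart. Myb, a factor of hematopoietic progenitors, read 12.95, 12.98 and 13.00 in the ERT2 WT samples and 13.43, 13.40 and 13.40 in the Cre-ERT2 WT samples and rose by 0.43 (SE 0.026). Sox4, needed for early B cell survival, rose by 0.35, Tcf12, the E protein HEB, by 0.31, Runx1 by 0.29 and Irf4 by 0.26. Bach2, an opponent of Prdm1, rose by 0.26 (limma adjusted p 0.0412), and Bcl6, another, was not called (0.03, 95% interval -0.02 to 0.08). Pax5, the factor that maintains B cell identity, read 13.80, 13.76 and 13.74 in the ERT2 WT samples and 13.57, 13.56 and 13.50 in the Cre-ERT2 WT samples and fell by 0.22 (SE 0.035, limma adjusted p 0.00115). The falls also included Klf2 (-0.28), Pou2f2, which encodes Oct2 (-0.21), and Bcl11a (-0.15). Ebf1, which specifies the lineage, rose by 0.11.

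Genes of the pre-B cell receptor and its signaling were called in both directions, 6 higher and 12 lower of 45. This called share of 40% stood beside 11.9% over all genes. The 7 components of the receptor complex had a median change of -0.12, and 4 of them fell. The surrogate light chain genes Vpreb1 (-0.16), Vpreb2 (-0.19) and Igll1 (-0.16) fell, as did Cd79b (-0.12), whereas the partner chain Cd79a was not called (0.06). Vpreb1 and Vpreb2 are near-identical copies that could share reads. The Src-family kinase gene Blk read 10.96, 10.94 and 11.05 in the ERT2 WT samples and 10.73, 10.63 and 10.70 in the Cre-ERT2 WT samples and fell by 0.30 (SE 0.039), and Rasgrp1, an activator of Ras, fell by 0.24. In contrast, the phosphatase gene Ptpn22, a brake on antigen receptor signaling, read 9.61, 9.47 and 9.45 in the ERT2 WT samples and 10.46, 10.35 and 10.35 in the Cre-ERT2 WT samples and rose by 0.88 (SE 0.054). The downstream genes Plcg2 (0.31), Prkcb (0.29) and Syk (0.15) rose, as did Pecam1 (0.29), an inhibitory adhesion receptor.

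Of 15 genes of V(D)J recombination 4 rose and 1 fell, a called share of 33.3% beside 11.9% over all genes. Dntt, terminal transferase, read 12.64, 12.66 and 12.63 in the ERT2 WT samples and 12.97, 12.92 and 12.94 in the Cre-ERT2 WT samples and rose by 0.30 (SE 0.021). The ligase gene Lig4 rose by 0.43, and Xrcc5 and Xrcc6, which encode the Ku proteins, rose by 0.15 and 0.11. The recombinase gene Rag1 fell by 0.15 (limma adjusted p 0.0314), while Rag2 was not called (-0.10).

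More surface antigens of B cells rose than fell, 13 of 32 being called higher and 3 lower, beside 5.93% and 5.95% over all genes. Enpep, the BP-1 antigen of pre-B cells, read 13.05, 13.04 and 13.12 in the ERT2 WT samples and 13.90, 13.82 and 13.87 in the Cre-ERT2 WT samples and rose by 0.80 (SE 0.028). Cd93, the AA4.1 antigen of early B cells, read 13.87, 13.96 and 13.86 in the ERT2 WT samples and 14.56, 14.56 and 14.58 in the Cre-ERT2 WT samples and rose by 0.67 (SE 0.028). Both were abundant and their groups did not overlap. Slamf7 rose by 0.63, Cd69, an early activation antigen, by 0.60, Cd82 by 0.40 and Slamf6 by 0.36. Tnfrsf13c, the BAFF receptor, fell by 0.19, Cd2 by 0.17 and Cd84 by 0.17.

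Several genes best known from T cells were higher in Cre-ERT2 WT samples. Of 28 T-lineage genes 9 had a row, of which 6 rose and none fell (median 0.23). This called share of 66.7% stood beside 11.9% over all genes. Lck, the kinase of CD4 and CD8, read 8.92, 8.90 and 8.81 in the ERT2 WT samples and 9.66, 9.66 and 9.73 in the Cre-ERT2 WT samples and rose by 0.81 (SE 0.035, limma adjusted p 1.56e-08). Zap70, the kinase of the T cell receptor, read 7.20, 7.18 and 7.22 in the ERT2 WT samples and 7.89, 7.85 and 7.81 in the Cre-ERT2 WT samples and rose by 0.65 (SE 0.034). Cd5 rose by 0.51, Cd28, a costimulatory receptor, by 0.44, the adaptor gene Lat by 0.23 and Ctla4 by 0.19. Some of these genes are also expressed in B cells. The list's summed level, as the log2 of summed unlogged values, ran from 11.38 to 11.41 in ERT2 WT and from 11.77 to 11.78 in Cre-ERT2 WT samples. The defining T cell genes Cd3e, Cd3d, Cd3g, Cd4 and Cd8a had no row among the 12151 genes, and the part of any T cells in these values was not tested. With a mean over the 12 libraries above 8 required, 2 of the rises were left to call.

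**Figure D4:**
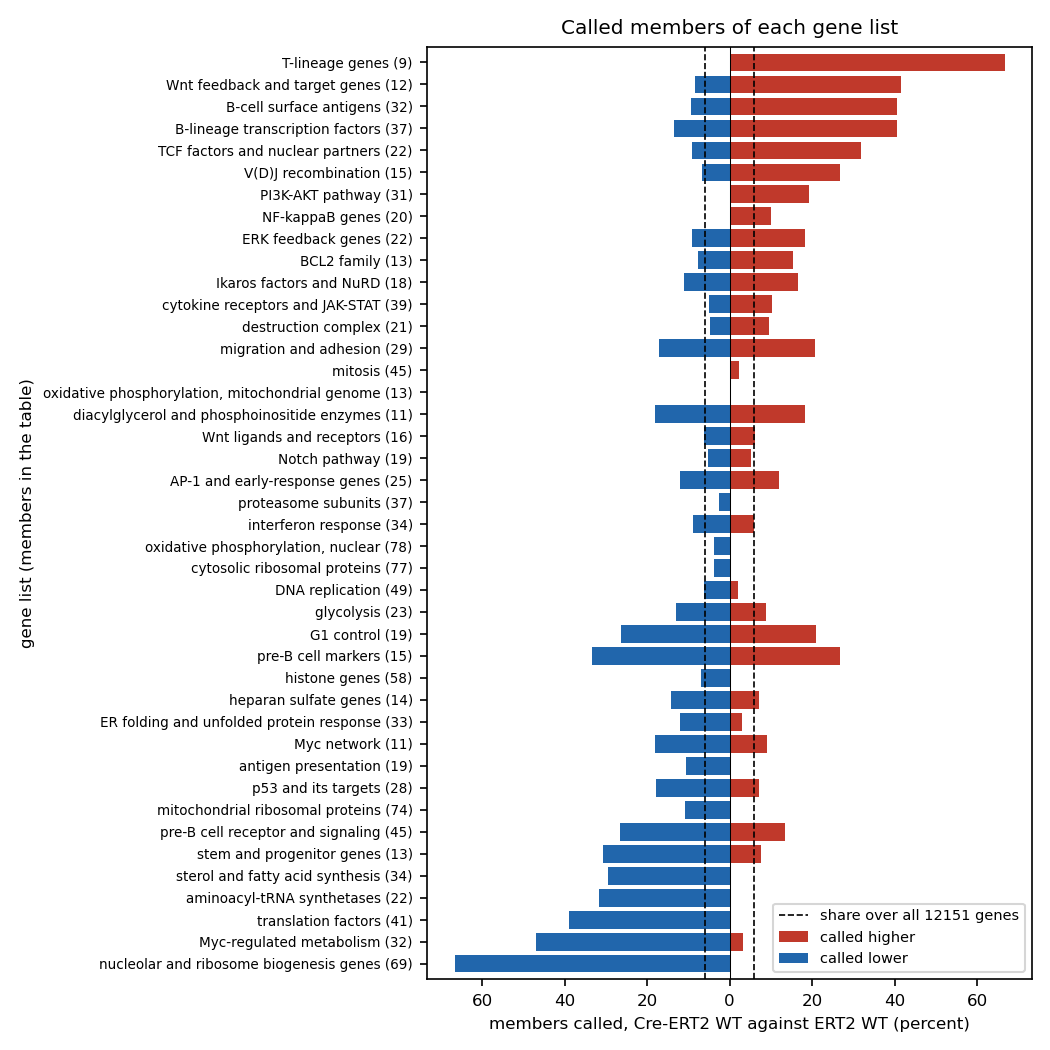
Share of members called higher (red, to the right) or lower (blue, to the left) in Cre-ERT2 WT samples for 42 gene lists, with the number of members in the table in brackets and the share over all genes as dashed lines. Nucleolar genes have the largest share of falls and T-lineage genes, with 9 members, the largest share of rises.

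Feedback genes of the ERK pathway split. Of 22, 4 rose and 2 fell, a called share of 27.3% beside 11.9% over all genes. Etv5, an ETS factor downstream of ERK, read 11.40, 11.45 and 11.49 in the ERT2 WT samples and 12.20, 12.19 and 12.18 in the Cre-ERT2 WT samples and rose by 0.74 (SE 0.026). The ERK phosphatase gene Dusp4 rose by 0.62 and Dusp6 by 0.29, whereas Dusp5 read 11.47, 11.41 and 11.49 in the ERT2 WT samples and 11.00, 10.98 and 11.03 in the Cre-ERT2 WT samples and fell by 0.45 (SE 0.034), and Dusp7 fell by 0.12. Phlda1 rose by 0.58. The phosphatases of 1 family thus moved in opposite directions. Spry2, a Sprouty inhibitor, was not called (0.04, 95% interval -0.01 to 0.10). Of 6 diacylglycerol kinase genes Dgka alone was called, and of 5 phospholipase C genes Plcg2 rose while Plcg1 (-0.13) and Plcb3 (-0.12) fell.

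Of 31 PI3K-AKT genes 6 rose and none fell, led by Pik3r5, a regulatory subunit of PI3Kγ (0.34), and the kinase gene Mtor (0.31, SE 0.033). Of 39 cytokine receptor and JAK-STAT genes 4 rose and 2 fell. Il2ra, which encodes CD25, read 11.48, 11.49 and 11.50 in the ERT2 WT samples and 11.89, 11.89 and 11.86 in the Cre-ERT2 WT samples and rose by 0.39 (SE 0.031). Socs2, an inhibitor of cytokine signaling, rose by 0.17, and Socs3 fell by 0.19. Il7r, the receptor through which normal pre-B cells receive IL-7, was not called (0.02, 95% interval -0.04 to 0.08). Of 20 NF-κB genes the inhibitors Tnfaip3 (0.40) and Nfkbia (0.18) rose and none fell. Of 25 AP-1 and early-response genes 3 rose and 3 fell, the falls being the AP-1 genes Jund (-0.32), Jun (-0.24) and Junb (-0.11). Of the 11 AP-1 genes among them 1 rose. The called shares were 19.4% of PI3K-AKT genes and 24% of AP-1 and early-response genes, beside 11.9% over all genes. Cytokine receptor and JAK-STAT genes (15.4%) and NF-κB genes (10%) were near that background.

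Of 29 genes of migration and adhesion 6 rose and 5 fell, a called share of 37.9% beside 11.9% over all genes. Itga4, the α4 integrin chain, read 12.42, 12.52 and 12.51 in the ERT2 WT samples and 13.07, 13.02 and 13.05 in the Cre-ERT2 WT samples and rose by 0.56 (SE 0.041). The chemokine receptor genes Cxcr5 (0.45), Ccr7 (0.39) and Cxcr4 (0.29) rose, while S1pr1 (-0.12) and S1pr4 (-0.14), receptors for sphingosine-1-phosphate, fell. The 3 chemokine receptors and both sphingosine-1-phosphate receptors thus moved apart. The syndecan genes Sdc4 and Sdc1 (-0.17) fell and Ndst1, an enzyme of heparan sulfate synthesis, rose by 0.38.

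Few genes of DNA replication and mitosis were called. Of 49 DNA replication genes 1 rose and 3 fell, and of 45 mitotic genes 1 rose and none fell, shares below the background of 11.9%. A negative change was found at 37 of the 49 (median -0.032) and at 19 of the 45 (median 0.0074). Top2a, topoisomerase II, rose by 0.11, E2f8 by 0.25, and Cdt1, a licensing factor, fell by 0.14. Of 19 genes of G1 control 4 rose and 5 fell, a called share of 47.4%. Cdk6 rose by 0.28 and the phosphatase gene Cdc25b by 0.28, while the D-type cyclin genes Ccnd2 (-0.15) and Ccnd3 (-0.11) fell. The inhibitor genes were called in both directions, 2 higher and 2 lower of 10 (median 0.045), the falls being Cdkn1a (-0.15) and Cdkn2a (-0.20). The 5 falls became 3 without any 1 ERT2 WT sample. Of 28 genes of p53 and its targets 2 rose and 5 fell, a called share of 25%. The falls of this list numbered 2 or 3 without ERT2 WT replicate 3 or Cre-ERT2 WT replicate 1 or 2. Trp53 itself was not called (-0.03, 95% interval -0.09 to 0.02).

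In the BCL2 family 2 of 13 genes rose and 1 fell, a called share of 23.1% beside 11.9% over all genes. The survival gene Bcl2 read 10.43, 10.40 and 10.31 in the ERT2 WT samples and 11.00, 11.07 and 11.01 in the Cre-ERT2 WT samples and rose by 0.65 (SE 0.036, limma adjusted p 2.08e-07), with no overlap between the groups. The death genes Bok and Bbc3, which encodes PUMA, rose by 0.23 and fell by 0.12. The other survival genes Mcl1 (0.04, 95% interval -0.0094 to 0.08) and Bcl2l1 (-0.03, 95% interval -0.10 to 0.04) were not called.

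Sterol and fatty acid synthesis genes were lower. Of 34, 10 fell and none rose, a called share of 29.4%, and 30 had a negative change (median -0.082). Fdps, which makes farnesyl pyrophosphate, read 11.47, 11.49 and 11.53 in the ERT2 WT samples and 11.34, 11.28 and 11.32 in the Cre-ERT2 WT samples and fell by 0.18 (SE 0.037). The fatty acid desaturase gene Scd2 fell by 0.16 and Mvd, which closes the mevalonate pathway, by 0.15. Srebf2, a transcriptional regulator of sterol synthesis, was not called (-0.07). Without ERT2 WT replicate 2 or 3 or Cre-ERT2 WT replicate 3, 6 falls were left. Of 33 genes of protein folding in the endoplasmic reticulum 4 fell, including the chaperone gene Hspa5 (-0.14), and 1 rose. Their called share of 15.2% was near the 11.9% over all genes.

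The remaining lists are given beside the 5.93% of all genes called higher and the 5.95% called lower. Of 23 glycolysis genes 2 rose and 3 fell, among them Hk2 (-0.14) and Pdk1 (0.22), together 21.7%. Of 78 nuclear genes of oxidative phosphorylation 3 fell and none rose, and none of the 13 mitochondrial-encoded subunits was called. Of 37 proteasome subunits 1 fell, of 58 histone genes 4 fell (between 1 and 10 with 1 sample left out), and of 34 interferon response genes 2 rose and 3 fell. Though few were called, 32 of the 37 proteasome subunits (median -0.038) and 56 of the 58 histone genes (median -0.044) had a negative change. So did 51 of the 78 nuclear oxidative phosphorylation genes (median -0.022), beside 6051 of all 12151 genes. Of 19 antigen presentation genes 2 fell, and of 19 Notch pathway genes 1 rose and 1 fell. Of 16 genes of Wnt ligands and receptors 1 rose and 1 fell. Of 13 progenitor genes 1 rose and 4 fell, together 38.5%, with Ly6a, which encodes Sca-1, at -0.23 and Erg at -0.20.

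The response was then set beside that of cells labelled as edited at Ikzf1 and Ikzf3, which shares no sample with it. Levels of the targeted transcripts do not show a loss of both. Ikzf1 averaged 13.74 in ERT2 WT and 14.75 in ERT2 KO samples, and 13.68 in Cre-ERT2 WT and 14.58 in Cre-ERT2 KO samples. Ikzf3 averaged 11.63 and 10.98 in the ERT2 groups and 11.92 and 11.22 in the Cre-ERT2 groups. Ikzf1 was thus higher and Ikzf3 lower in the libraries labelled KO, and a gene-level RNA value does not measure editing or protein. In KO cells 1531 genes (12.6%) were called, 883 higher (7.27%) and 648 lower (5.33%). The difference of the responses was called for 550 genes (4.53%). In KO cells 356 of the 720 rises of WT cells recurred as calls in the same direction, as did 213 of the 723 falls. The difference itself was called for 164 of the rises and 123 of the falls. Genes were selected here by their change in WT cells, which by itself favors smaller changes in KO cells.

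The largest rises divided by background. Dgka rose in both, by 1.31 in WT and 1.29 in KO cells, with a difference of -0.02 (95% interval -0.10 to 0.06). Prdm1 (0.66 and 0.64) and Kremen1 (0.69 and 0.54) had no called difference either. Lck rose by 0.81 and 0.33 (limma adjusted p of the difference 0.000102) and Enpep by 0.80 and 0.33 (2.4e-05), so that both rose more in WT cells. Tmem119 (1.46 and 0.42), Cpm (1.34 and 0.47) and Nuak1 (1.16 and 0.40) also rose more in WT cells. The opposite held for Nkd1 (0.53 and 1.10), Tcf7 (0.26 and 0.85), Phlda1 (0.58 and 1.11) and Cd28 (0.44 and 1.96), which rose less in WT cells. The change at Gm5537, which shares its sequence with Pgk1, was 2.99 in WT and 0.46 in KO cells. It averaged 7.57 in ERT2 WT and 11.05 in ERT2 KO samples, the latter above the Cre-ERT2 WT mean of 10.56. The part of such unequal starting levels in the differences was not tested.

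The fall of Myc was -0.62 in WT and -0.31 in KO cells, a difference of 0.31 (SE 0.027, limma adjusted p 2.7e-05). Myc averaged 12.21 in ERT2 WT and 13.31 in ERT2 KO samples, and 11.59 in Cre-ERT2 WT and 13.00 in Cre-ERT2 KO samples. It thus started higher in KO cells, and the part of this start in the difference was not tested. Nucleolar genes had median changes of -0.13 and -0.045, and 46 of 69 fell in WT against 10 in KO cells. The difference was called for 5 of the 69, all positive, among them Heatr1 (-0.21 and 0.0019) and Noc2l (-0.23 and -0.12). For most nucleolar genes a difference between backgrounds was therefore not detected at the single-gene level. Other growth lists varied. Translation factors had medians of -0.07 in WT and -0.027 in KO cells, with 16 and 4 falls. Genes of Myc-regulated metabolism had nearly equal medians of -0.081 and -0.074, with 15 and 13 falls. Aminoacyl-tRNA synthetases fell more in KO cells, with medians of -0.072 and -0.12 and 7 and 10 falls. Of the 34 sterol and fatty acid genes, the difference was called positive for 9 and negative for 1, with medians of -0.082 in WT and 0.042 in KO cells. Hmgcs1 changed by -0.11 and 0.09, Scd2 by -0.16 and 0.04 and Mvd by -0.15 and 0.09. None of these 3 was called in KO cells. Opposite called changes were found at Ets1 (0.27 and -0.10), Ndst1 (0.38 and -0.31), Sema7a (-0.40 and 0.34), Rasgrp1 (-0.24 and 0.19), Ccnd2 (-0.15 and 0.32) and Cdkn2a (-0.20 and 0.42).

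**Figure D5:**
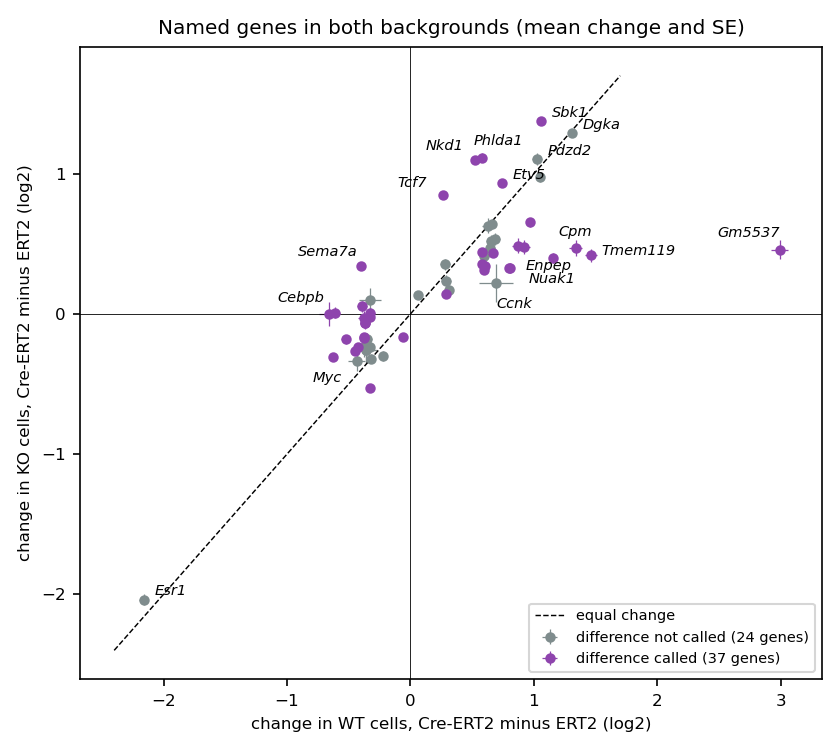
Change of 61 named genes in WT cells (horizontal axis) and KO cells (vertical axis), both as Cre-ERT2 minus ERT2 on the log2 scale with SE, and the line of equal change. The 37 genes in purple differ between the backgrounds by the test of the difference, and Tmem119, Cpm and Nuak1 lie below the line while Nkd1, Tcf7 and Phlda1 lie above it.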

How the data were processed

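RNA of sorted GFP+ cells was sequenced from poly(A)-selected stranded libraries (280 ng of RNA). According to the submitters' processing notes, reads were handled with Salmon 1.4.0 and STAR 2.7.6 on mm10 and with DESeq2 1.30.1, and the study's methods name GENCODE vM24. The authors deposited 1 table of normalized log2 values for 12151 genes in 12 samples. The transformation and the gene filter are not given in the sources used here, and without counts the depth of each sample is unknown.

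The values were fitted as deposited with limma 3.58.1 in R 4.3.3, with 4 group means over the 12 samples, a mean-dependent prior and Benjamini-Hochberg adjustment over all genes. The fit was tested on simulated data. Positions and exon 3 were taken from GENCODE vM21. The genes and lists were chosen with earlier results of these data known. Named were 12 genes of the study, the 20 largest rises and falls above the median gene, 5 of each at or below it, and at most 4 called list members per direction, plus some defining members that were not called and a few further members chosen after their values were seen. Alternatives covered scaling, filters, pseudocounts, the prior, the threshold, a replicate block and single samples left out. A few items are not reported here.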

Additional observations from a re-analysis of the deposited data

Results flagged for a closer look

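For 66 of the genes named here the response to β-catenin differed between WT and KO cells by the test of the difference itself, the interaction term of the limma fit at an adjusted p under 0.05. Each value in brackets is the change in KO cells minus the change in WT cells on the log2 scale, from 3 replicates in each of the 4 groups. Over all genes 4.53% passed the same test. Most of the named genes were picked by their change in WT cells, which is part of the difference. The 66 genes and this share are therefore not a like comparison.

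Rises that were larger in WT cells, or absent in KO cells, were those of Gm5537 (-2.53), Tmem119 (-1.05), Cpm (-0.87), Nuak1 (-0.76), Lck (-0.48), Enpep (-0.47), Igfbp4 (-0.44), Ptpn22 (-0.39), Cxcr5 (-0.35), Megf10 (-0.32), Apobec1 (-0.28), Acpp (-0.26), Lat (-0.25), Zap70 (-0.24), Cd93 (-0.23), Erc1 (-0.22), Ebf1 (-0.19), Cdc25b (-0.18), Axin2 (-0.15), Rnf157 (-0.14) and Xrcc5 (-0.13). Gm5537 shares its sequence with Pgk1. Starting levels of several of these genes differed between ERT2 WT and ERT2 KO samples. They were lower in KO cells for Lck (8.88 and 7.43) and Acpp (9.38 and 7.54). They were higher in KO cells for Gm5537 (7.57 and 11.05), Megf10 (9.35 and 11.45) and Erc1 (9.61 and 11.57). The part of these levels in the differences was not tested. Rises that were larger in KO cells were those of Cd28 (1.52), Tcf7 (0.58), Nkd1 (0.57), Phlda1 (0.54), Cd5 (0.51), Dntt (0.47), Syk (0.37), Sbk1 (0.32), Tnfrsf19 (0.27), Cxcr4 (0.25), Irf4 (0.25), Slc16a1 (0.22), Prkcb (0.21) and Etv5 (0.19).

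Falls that were larger in WT cells, or absent in KO cells, were those of Cebpb (0.62), Csf2rb2 (0.44), Nov (0.35), Zeb2 (0.34), Slc39a14 (0.33), Myc (0.31), Csf2rb (0.30), Gsto1 (0.30), Ndc1 (0.30), Mvd (0.24), Heatr1 (0.21), Ifitm1 (0.21), Srm (0.21), Car2 (0.20), Hmgcs1 (0.20), Scd2 (0.20), Dusp5 (0.19), Sdc4 (0.19), Socs3 (0.19), Bambi (0.13) and Noc2l (0.11). Cebpb and Ifitm1 averaged 5.80 and 4.28 in ERT2 WT samples but 5.21 and 4.07 in ERT2 KO samples. The latter were already near the Cre-ERT2 WT means of 5.19 and 4.08, and the part of this lower start in the difference was not tested. Changes called in opposite directions in the 2 backgrounds were found at Sema7a (0.74), Ndst1 (-0.68), Cdkn2a (0.61), Ccnd2 (0.47), Rasgrp1 (0.43), Ets1 (-0.37) and Cd84 (0.30). A larger fall in KO cells was found at Syndig1l (-0.20) and Ikzf1 (-0.10), of which Ikzf1 is a target of the editing there by the labels. No change was called in WT cells for Tcf7l1 (-0.16).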

How the results depend on the processing

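The 1443 calls became 1274 under a fit to the 6 WT samples alone and stayed between 1176 and 1550 under the other scalings, filters, pseudocounts and priors tried, with 1026 to 1198 when 1 WT sample was left out. Rises numbered 532 to 612 and falls 494 to 586 with 1 sample left out. Centering each sample on its median gave 641 rises and 831 falls. At an adjusted p under 0.01, 787 genes were called, 428 higher and 359 lower. Changes of at least 0.5 numbered 42, 40 to 45 with 1 sample left out, and 27 when only genes above the median were tested. The difference between WT and KO cells was called for 383 to 448 genes with 1 WT sample left out, and no KO sample was left out. It was called for 337 genes with a mean above 8, for 291 above the median gene and for 240 at an adjusted p under 0.01.

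The deviations of same-numbered WT samples correlated at -0.0663, -0.0116 and 0.0596, so replicate numbers were not taken to pair them. Same-numbered KO samples correlated at 0.0948, 0.132 and 0.0767, a hint of pairing in KO cells from the data and not from the labels. The differently numbered KO pairs were all negative, from -0.0191 to -0.0871. Deviations within a group sum to 0, so positive same-numbered values push the other pairs below 0. The negative pairs are thus no separate sign of pairing. With the replicate number as a block, 1361 genes were called, 682 higher and 679 lower, 42 by at least 0.5, and 424 for the difference.

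Of 183 called genes named here, 144 kept direction and call in the alternatives that tested them, and 39 lost the call in at least 1. With 1 sample left out the call was lost at least once for Bach2, Bbc3, Cad, Ccnd3, Cd2, Cd79b, Cdk2ap1, Cdkn2a, Ctnnbip1, Dusp7, Ebf1, Fzd6, Fzd7, Gm26917, Gm28438, Hdac1, Hk2, Hmgcs1, Hspa5, Ikzf1, Junb, Notch1, Pgk1, Phlda3, Plcb3, Rag1, Rbbp4, S1pr1, S1pr4, Sesn1, Shmt1, Siah1a, Tle1, Top2a, Xrcc6 and Yars. Changes of sign occurred at 4 genes that were not called: Chd4 and Max under quantile normalization (0.003 and 0.002), and with 1 sample left out Chd4 (-0.021 to 0.003), Il7r (-0.004 to 0.042), Max (-0.017 to 0.02) and Tcf7l2 (-0.009 to 0.048). List medians changed sign under another scaling for G1 control, pre-B cell receptor, antigen presentation, migration and myeloid genes, all near 0.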

Other observations

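Single members of several pathways outside the main gene groups were also called. Trp53inp1, a p53 target linked to autophagy, rose by 0.31 (SE 0.049) and Sesn1, an inhibitor of mTORC1, by 0.14, while Zmat3 fell by 0.17 and Phlda3, an AKT inhibitor, by 0.11 (limma with Benjamini-Hochberg adjustment). The protease gene Adam10, which cleaves Notch receptors, rose by 0.23 and Notch1 fell by 0.17. Among interferon response genes Irf1 rose by 0.22 and Ifitm1 fell by 0.20, and H2-Ab1, a chain of MHC class II, fell by 0.20. Of the Wnt receptors, Fzd6 rose by 0.09 and Fzd7 fell by 0.12.

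None of the 15 genes of the mitochondrial genome was called, although their median change was 0.0881 in WT cells. Malat1, an abundant nuclear RNA, read 11.24, 11.68 and 10.99 in the ERT2 WT samples and 11.57, 11.69 and 11.72 in the Cre-ERT2 WT samples, and its change of 0.36 was not called (limma adjusted p 0.127).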
